A study of Mus musculus with 4 samples.

Results

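The genes described here are the numbered Zfp genes of the mouse, that is, every gene whose symbol is Zfp followed by exactly 3 digits. They were taken from a table of nascent transcription in double positive (DP) thymocytes, and a gene was kept when its mean level over the 4 libraries was at least 1 CPM (the fragments of a gene scaled to a common library total). Of 24984 genes in the table, 312 carried such a symbol and 251 of these reached the limit. The members were thus chosen by symbol and by their mean level in all 4 libraries, so levels are given as a description. The rule used no difference between genotypes.

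Most Zfp genes code for proteins with arrays of zinc fingers of the Cys-His class, short loops held by a zinc ion that read DNA side by side. Many carry a KRAB domain at the N terminus, which recruits the co-repressor Trim28 (KAP1) and, through it, the histone methyltransferase Setdb1, heterochromatin proteins and DNA methylation to the bound site, in large part at transposable elements. KRAB zinc finger genes arose by repeated local duplication and lie in clusters of close relatives, while zinc finger proteins without KRAB act as promoter factors, adaptors of chromatin complexes, RNA binding proteins and regulators of lymphocyte development.

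The libraries were made by TTchem-seq, which labels RNA with 4-thiouridine during a short pulse, enriches the labelled RNA and thereby reads transcription over whole genes, introns included. There were 2 libraries from mice with loxP sites around exons 4 to 6 of Tox4 and no Cre (Tox4;F/F, called WT in the sample titles) and 2 from mice that carried the same floxed alleles and Cre (Tox4;F/F;Lck+, called cKO). TOX4 is a chromatin protein of the TOX family that binds the PP1 phosphatase. Per the study's methods, Cre was driven by the proximal Lck promoter, which is active from the DN3 stage, the mice were littermates of 6 to 8 weeks, and the floxed allele was made in C57BL/6 eggs. How the DP cells were purified for this assay is not given in the sources used here, and the cells spent 0.5 h in fresh medium before labelling.

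The 4 libraries held between 38429786 and 48690591 fragments, of which 0.974% to 0.996% fell in the 251 genes, and the lowest count of any of them in any library was 28. Xist was counted at 172 CPM in WT replicate 1 and at 2.36 CPM or less in the other libraries. The level of the Y-linked Ddx3y in WT replicate 1 was 0.164 CPM, against 54.0 to 63.0 CPM in the others. WT replicate 1 thus differed from the other 3 libraries in its sex transcripts, although the methods describe sex-matched mice, and each call of a numbered Zfp gene below is given without it too. Tox4 itself, counted over its whole span and not over the deleted exons alone, was at 74.0 and 70.3 CPM in WT and at 59.3 and 57.2 CPM in cKO (log2 fold change −0.31, SE 0.0998, adjusted p = 0.0453 by DESeq2), a call that was lost whichever library was left out (log2 fold changes from −0.34 to −0.28) and by edgeR (adjusted p = 0.153). Of 9 markers of DP thymocytes, DESeq2 called Cd8a (log2 fold change −0.54, adjusted p = 1.21e-05) and Rag1 (−0.31, adjusted p = 0.0499) lower in cKO, and edgeR called neither (adjusted p = 0.108 and 0.291). Of 4 markers of mature single positive T cells, DESeq2 called Il7r higher (0.36, adjusted p = 0.0125) and Ccr7 lower (−0.34, adjusted p = 0.00714), and edgeR called neither (adjusted p = 0.124 and 0.164). The summed level of the latter 4 was 433 to 443 CPM in WT and 361 to 418 CPM in cKO. Ms4a1, S100a8, Hbb-bs and Foxn1 were at or near 0 in every library, 4 markers of B cells summed to 8.81 and 9.18 CPM in WT and to 10 and 9.59 CPM in cKO, and the 7 of myeloid cells to between 23.5 and 26.7 CPM. The part of cell composition or sex in the results was not tested.

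Transcription of the numbered Zfp genes differed little between WT and cKO DP cells. Zfp438, Zfp367 and Zfp318 rose in cKO, and Zfp951 fell. The criteria were those of the study. A call required an adjusted p below 0.05 by DESeq2, at least a 1.2-fold difference and 1 CPM or more in the mean. Of the 251 genes, 4 (1.59%) were called, where 3.71% of all 11625 genes at the same level were. DESeq2 gave no adjusted p for 16 of the members and for 1001 of all genes, and these count as not called. Of the members 3 were increased, beside 2.14% of all genes, and 1 was decreased (0.398%), beside 1.57%. Both shares lay below those of all genes, and no test of that difference was made. In bulk cells, less RNA per cell and fewer cells that make it cannot be told apart. With edgeR, run after its filter on low counts here and in the following unless stated otherwise, Zfp438 alone was called among the members (0.398%, beside 0.499% of all genes).

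Zfp951 (chr5:104802246-104860068, minus strand, GRCm38) was at 29.3 and 39.6 CPM in WT and at 21.8 and 17.9 CPM in cKO. Both cKO libraries lay below both WT libraries, and the WT libraries differed by more than the cKO libraries did. The log2 fold change was −0.80 (SE 0.171, adjusted p = 0.000272 by DESeq2), and edgeR gave an adjusted p of 0.123. Without WT replicate 1 the fold change was −1.01 and the gene was still called, whereas the call was lost without WT replicate 2 (−0.56, adjusted p = 0.171) and without cKO replicate 2 (−0.67, adjusted p = 0.217). Of the 4 called genes, only Zfp951 codes for a protein with a KRAB box (as found by a sequence pattern described below), and its coding sequence held 10 zinc fingers. Its WT replicate 2 count was fractional (1929.5 fragments). How such fractions arose is not given in the sources used here.

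Zfp438 (chr18:5210031-5334807, minus strand) was at 43.7 and 43.6 CPM in WT and at 63.1 and 65.6 CPM in cKO. The libraries of each genotype were close to each other and the genotypes did not overlap. The log2 fold change was 0.56 (SE 0.105, adjusted p = 1.8e-05 by DESeq2, 0.0432 by edgeR), and it lay between 0.52 and 0.59 when each library was left out. The call was kept without WT replicate 1 (adjusted p = 0.0129) and lost without cKO replicate 2 (adjusted p = 0.121).

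Zfp367 (chr13:64133022-64153199, minus strand) was at 23.3 and 33.5 CPM in WT and at 46.1 and 40.7 CPM in cKO. The cKO libraries were the higher ones, and WT replicate 1 was the lowest of all. The log2 fold change of 0.61 (SE 0.163, adjusted p = 0.00837 by DESeq2, 0.204 by edgeR) changed most with the WT libraries. It was 0.36 without WT replicate 1 (adjusted p = 0.542) and 0.90 without WT replicate 2 (adjusted p = 5.85e-05), and without cKO replicate 1 or cKO replicate 2 the gene was not called (adjusted p = 0.542 and 0.192). Uhrf1, a cofactor of DNA methylation and no Zfp gene, was also lowest in WT replicate 1, at 51.0 CPM against 77.6, 86.3 and 90.2 CPM in the others, and was not called (log2 fold change 0.45, adjusted p = 0.561), except when WT replicate 2 was left out (0.79, adjusted p = 5.88e-07).

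Zfp318 (chr17:46383766-46420918, plus strand), known for enabling the expression of IgD in B cells, was at 10.4 and 12.5 CPM in WT and at 17.8 and 17.3 CPM in cKO. The genotypes did not overlap. The log2 fold change was 0.61 (SE 0.181, adjusted p = 0.0244 by DESeq2, 0.139 by edgeR). Leaving out any 1 library ended the call, with fold changes from 0.47 without WT replicate 1 (adjusted p = 0.665) to 0.75 without WT replicate 2 (adjusted p = 0.0661).

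**Figure D1:**
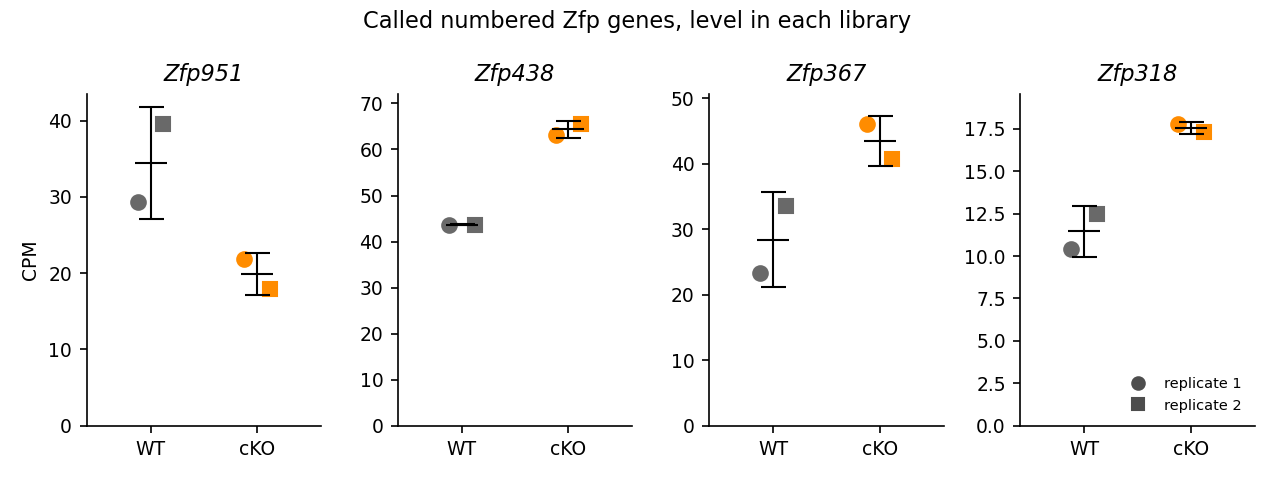
Level of the 4 called genes in CPM (linear axis from 0, own scale in each panel) in WT and cKO. Circles and squares are replicates 1 and 2, the horizontal bar is the mean and the whiskers are the SD over 2 libraries. Zfp951 is lower in both cKO libraries, Zfp438, Zfp367 and Zfp318 are higher in both, and the 2 WT libraries lie far apart for Zfp951 and Zfp367 and together for Zfp438.

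Genes next to the called ones were looked at too. Among genes of at least 1 CPM within 500 kb, DESeq2 and edgeR each called 0 of 9 around Zfp951, 0 of 3 around Zfp438, 0 of 8 around Zfp367 and 0 of 28 around Zfp318, and 6 of these 48 had an unadjusted DESeq2 p-value under 0.05, where 13.5% of all genes had. These 6 were 3 of the 9 around Zfp951, 2 of the 3 around Zfp438, 0 around Zfp367 and 1 around Zfp318. All 3 neighbours of Zfp438 had higher values in cKO, as Zfp438 itself did, with the lowest adjusted p for Zeb1 (log2 fold change 0.20, adjusted p = 0.0871). The lowest adjusted p of all neighbours was that of Gbp4 beside Zfp951 (log2 fold change −0.29, adjusted p = 0.0575). The span of none of the 4 overlapped another gene on either strand. To show what lay upstream, the 250 bases before the annotated start are given for Zfp951, Zfp367 and Zfp318 from RefSeq (GRCm38.p6), 5′ to 3′ on the strand of the gene. The sequence upstream of Zfp438 is not reported here. Capitals mark any match, on either strand, to the ETS core CCGGAAG, the GC box GGGCGG, the YY1 core GCCATNTT, the TATA box TATAAA or a motif of ACTACA, any 2 bases and TCC (the half-motif in the following), which is part of longer sites bound by the promoter factor Zfp143.
Zfp951, chr5:104860069-104860318, minus strand: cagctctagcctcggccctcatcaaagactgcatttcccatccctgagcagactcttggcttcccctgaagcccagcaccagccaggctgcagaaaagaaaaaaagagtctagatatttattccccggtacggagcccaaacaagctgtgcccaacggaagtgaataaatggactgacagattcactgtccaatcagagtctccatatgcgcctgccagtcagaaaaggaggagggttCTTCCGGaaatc
Zfp367, chr13:64153200-64153449, minus strand: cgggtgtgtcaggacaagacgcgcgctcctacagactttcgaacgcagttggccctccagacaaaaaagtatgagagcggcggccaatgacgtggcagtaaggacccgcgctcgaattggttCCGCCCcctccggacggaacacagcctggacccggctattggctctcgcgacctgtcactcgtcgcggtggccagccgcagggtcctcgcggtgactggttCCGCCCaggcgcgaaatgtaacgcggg
Zfp318, chr17:46383516-46383765, plus strand: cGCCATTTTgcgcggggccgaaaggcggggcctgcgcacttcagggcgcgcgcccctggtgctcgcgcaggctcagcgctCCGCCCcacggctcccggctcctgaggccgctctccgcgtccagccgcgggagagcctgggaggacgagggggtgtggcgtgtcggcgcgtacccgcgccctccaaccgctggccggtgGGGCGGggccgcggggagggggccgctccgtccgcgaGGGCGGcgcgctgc
The 3 promoters differed in base composition. That of Zfp951 was 51.2% G and C with 6 CpG and held an ETS core near its end, that of Zfp367 was 64.0% with 29 CpG and GC boxes, and that of Zfp318 was 79.6% with 39 CpG, a YY1 core and GC boxes. The matches are a description of these letters and not a test of binding.

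Beyond the called genes, 9 members had an unadjusted p-value under 0.05. With the called genes these were 13 of 251 (5.18%), beside 13.5% of all genes. Among them, 6 were higher in cKO and 3 were lower. Zfp335, a factor needed for the maturation and emigration of T cells, was at 96.4 and 93.8 CPM in WT and at 81.9 and 79.3 CPM in cKO (log2 fold change −0.24, SE 0.0911, adjusted p = 0.125 by DESeq2). Its libraries separated by genotype with little spread, although the difference did not pass the test over all genes. Zfp169 (log2 fold change −0.24, adjusted p = 0.217) and Zfp444 (−0.21, adjusted p = 0.346) were the others with lower values. Zfp704 was at 140 and 151 CPM in WT and at 174 and 164 CPM in cKO (log2 fold change 0.21, adjusted p = 0.165). The biggest fold change of all members in the direction of cKO was that of Zfp651, at 2.72 and 2.51 CPM in WT and 5.26 and 4.00 CPM in cKO (log2 fold change 0.82, SE 0.337, adjusted p = 0.18). At this level the SE was wide. Zfp184 (0.74, adjusted p = 0.22), Zfp963 (0.49, adjusted p = 0.182), Zfp719 (0.37, adjusted p = 0.35) and Zfp800 (0.23, adjusted p = 0.345) were the remaining ones with higher values.

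Over all 251 genes, 120 had a log2 fold change above 0 and 131 below. The median was −0.004 with quartiles of −0.126 and 0.103, and over all 11625 genes it was 0.001 with quartiles of −0.125 and 0.132. A log2 fold change beyond 0.5 in either direction was found for 10 members (3.98%) and for 7.99% of all genes. The 2 libraries of a genotype lay both above or both below those of the other for 107 members (42.6%; 52 higher and 55 lower in cKO), where 48.9% of all genes did so. The 95% interval of the fold change lay wholly within 1.5-fold in either direction for 159 members (63.3%, beside 64.6% of all genes). This share depended on depth. It was 13 of the 83 members with the lowest level, 64 of 84 in the middle and 82 of 84 at the top, so that at a level of 8.71 CPM or less the interval of most members reached beyond a 1.5-fold change.

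**Figure D2:**
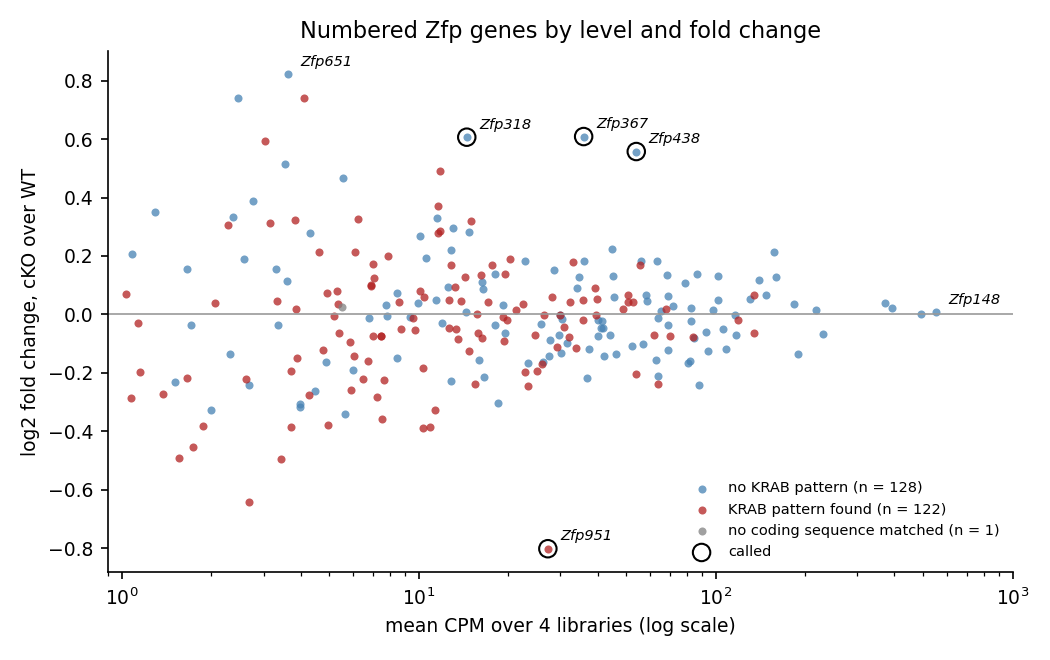
The log2 fold change of cKO over WT against the mean CPM over 4 libraries (log axis) for the 251 genes, coloured by whether a KRAB pattern was found in the coding sequence. Rings mark the 4 called genes. The scatter narrows to the right, from −0.643 to 0.821 among the 83 genes with the lowest level to a narrow band around 0 for the genes with most fragments, and Zfp951 lies lowest of all at −0.80.

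The 5 genes with the most fragments were not called. Zfp148 (ZBP-89), a factor that binds GC-rich promoters, was at 571 and 530 CPM in WT and at 542 and 566 CPM in cKO, with a 95% interval of the log2 fold change from −0.14 to 0.15. Zfp292 was at 495 and 483 CPM in WT and 484 and 496 CPM in cKO (interval −0.14 to 0.14). The genotypes overlapped for both genes. Zfp407 was at 387 to 402 CPM over the 4 libraries, Zfp644, a partner of the methyltransferases G9a and GLP, at 362 to 379 CPM, and Zfp236 at 222 to 237 CPM, with log2 fold changes of 0.02, 0.04 and −0.07.

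Per length of the transcribed span, the order was another one, since all of these spans are long. Zfp646 had 16.9 CPM per kb of its 8296 bp, ahead of Zfp319 (12.2), Zfp687 (9.22), Zfp408 (9.21) and Zfp740 (9.0), and Zfp148 had 4.48 CPM per kb of its 123129 bp. The CPM of Zfp646 were 123 and 145 in WT and 156 and 136 in cKO. Its level per length thus exceeded that of Zfp319 by more than the spread of either, while those of Zfp687, Zfp408 and Zfp740 were within the spread of their libraries. None of these 5 was called (log2 fold changes of 0.12 for Zfp646, −0.12 for Zfp319, −0.16 for Zfp687, 0.18 for Zfp408 and −0.12 for Zfp740). When each library was left out, the value ran from −0.0018 to 0.25 for Zfp646, from −0.24 to −0.0014 for Zfp319, from −0.25 to −0.06 for Zfp687 and from 0.03 to 0.35 for Zfp408. At the other end, Zfp811, Zfp229 and Zfp428 were just inside the limit with mean levels of 1.03, 1.07 and 1.08 CPM, and Zfp108, Zfp521 and Zfp661 just outside with 0.953, 0.926 and 0.920 CPM. Of the 61 numbered Zfp genes under the limit, 7 had no fragment in any library.

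To compare classes of protein, the coding sequences of the annotation were translated, and zinc fingers and a KRAB box were searched by their residue patterns. A coding sequence was matched for 250 of the 251 genes. The proteins held up to 36 fingers (Zfp142), with a median of 10, and 8 had none by this pattern. A KRAB pattern was found in 122 proteins and not in 128. Those with KRAB held a median of 11 fingers and those without 7.5. The pattern misses boxes that are weakly conserved, so the second class may hold some KRAB genes.

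The KRAB genes were counted at a lower level. Their median was 0.759 CPM per kb, against 1.84 CPM per kb for the genes without the pattern, and the medians without the correction for length were 11.6 and 31.0 CPM. The highest among KRAB genes were Zfp746 and Zfp871 (135 CPM each) and Zfp266 (119 CPM). The genotype difference was small in both classes. Of 122 KRAB genes 1 was called (0.82%, beside 3.71% of all genes), Zfp951, with a median log2 fold change of −0.019 over the class, and of 128 genes without the pattern 3 were called (2.34%), with a median of 0.004. The median level per length was 0.810 and 0.575 CPM per kb for KRAB genes in and outside of clusters, and 1.64 and 1.87 CPM per kb for the others, so that the classes differed by more than the positions did. No test was made of these levels, which had a part in the choice of the genes. Fractional counts occurred in 37.7% of the KRAB genes and in 27.3% of the others. How fragments that align in several places were treated is not given, and its part in these levels was not tested.

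**Figure D3:**
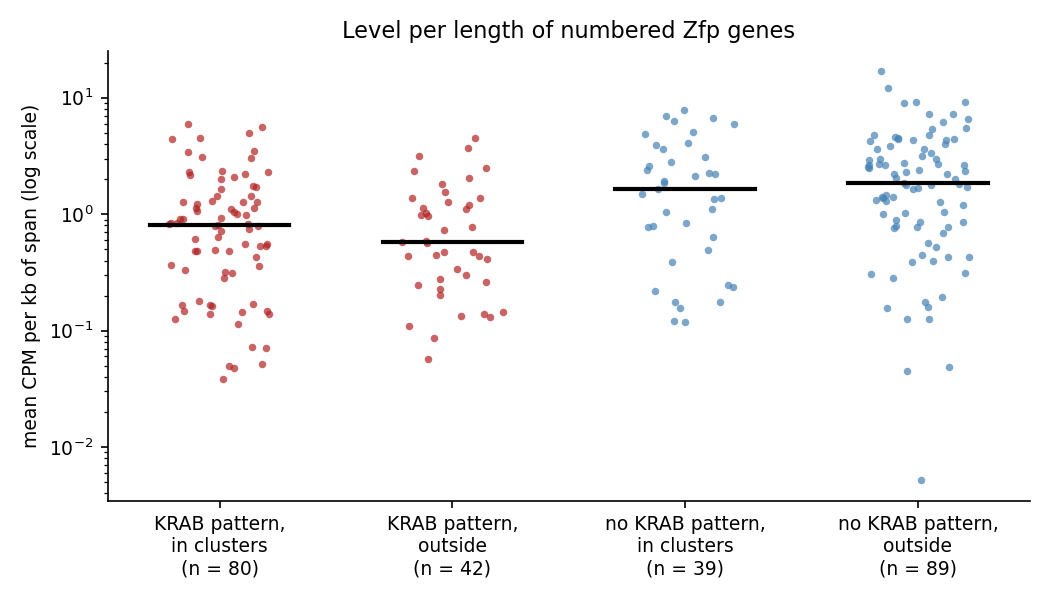
Mean CPM per kb of span (log axis) of 250 genes by KRAB pattern and position, each point a gene and the bar the median. The medians of both KRAB classes (0.810 and 0.575) lie below those of the genes without the pattern (1.64 and 1.87), with wide overlap.

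The members were unevenly spread over the chromosomes. Chromosome 7 held 65 of them (25.9%), although it held 7.45% of all genes of at least 1 CPM. Chromosome 17 held 30, with 5.36% of all genes, and chromosome 13 held 24 (9.56%, beside 4.09%). Chromosome 11, with 8.25% of all genes, held 9 members (3.59%), and chromosome 19 held 1. A cluster was defined as at least 3 numbered Zfp genes, at any level, that followed each other with starts within 250 kb. By this definition 120 members (47.8%) lay in 25 clusters, and the share was 37.8% at 100 kb and 57.4% at 500 kb. Of the 65 members on chromosome 7, 48 were in clusters. Of the 122 KRAB genes 80 were in clusters, and of the 128 others 39 were.

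**Figure D4:**
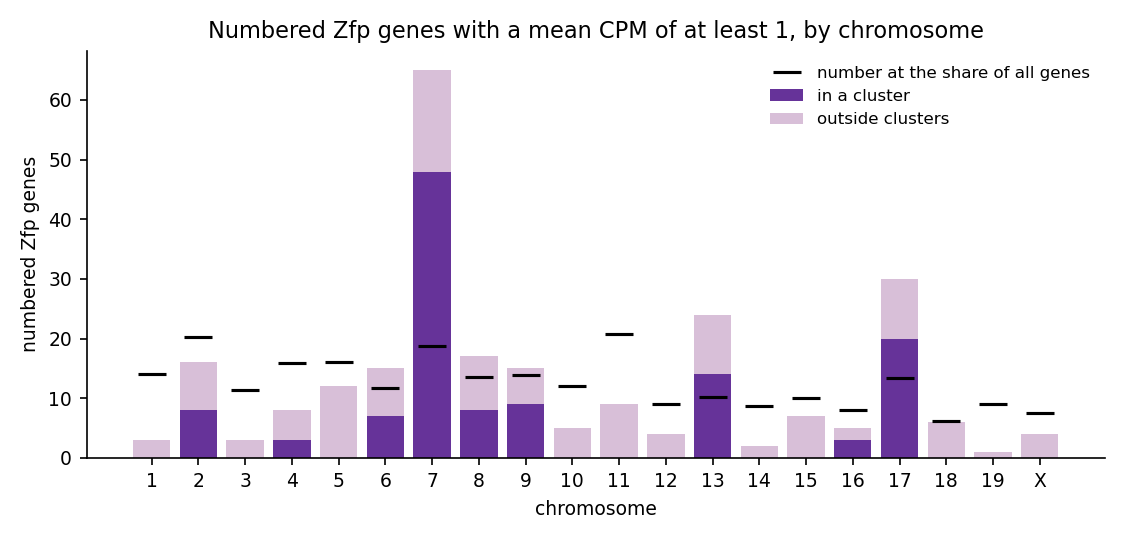
Number of the 251 genes on each chromosome, split into those inside and outside of clusters. The black line gives the number there would be if they followed the share of all genes of at least 1 CPM. Chromosome 7 stands out with 65 genes, followed by chromosomes 17 (30) and 13 (24).

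No gene of a cluster was called, in either direction, by DESeq2 or by edgeR after its filter on low counts (edgeR without that filter called Zfp963), and 3 of the 120 (Zfp444, Zfp719 and Zfp963) had an unadjusted p-value under 0.05, where 13.5% of all genes had. All 4 called genes were among the 131 outside of clusters (3.05%, beside 3.71% of all genes), and no test was made between the positions. DESeq2 gave no adjusted p for 9 of the genes in clusters and for 7 of those outside. The median log2 fold change was −0.014 in and 0.001 outside of clusters. The cluster with the most members lay at chr13:67038594-67827000 and held 14, of which 9 had the KRAB pattern. Their level ran from Zfp457, with 0.119 CPM per kb, to Zfp748, with 2.34 CPM per kb, a ratio of 19.6. Zfp748 was at 35.1 and 35.4 CPM in WT and at 32.1 and 33.1 CPM in cKO. Zfp738 (17.7 CPM in the mean) and Zfp595 (16.5 CPM) followed. Of the 14 genes 7 were higher and 7 lower in cKO, and the summed level was 131 and 139 CPM in WT and 129 and 135 CPM in cKO.

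At chr17:21383748-22456689, 13 members were found, and all 13 had the KRAB pattern. Zfp942 was at 51.7 and 47.2 CPM in WT and at 51.2 and 52.5 CPM in cKO, ahead of Zfp943 (mean of 35.7 CPM) and Zfp944 (19.2 CPM), 6 of the genes were higher in cKO and 7 lower, and the sum was 161 and 151 CPM in WT and 150 and 161 CPM in cKO. The cluster at chr7:29816072-30169741 held 9, with Zfp260 at 63.0 and 65.7 CPM in WT and 64.5 and 63.3 CPM in cKO, followed by Zfp146 (45.0 CPM) and Zfp382 (33.1 CPM). The sum was 219 and 235 CPM in WT and 235 and 237 CPM in cKO. In the clusters on chromosomes 13 and 17 the genotypes overlapped in the sum, and in that on chromosome 7 WT replicate 1 was the lowest and the other 3 libraries were close to each other. Over the 25 clusters the median log2 fold change of the members ran from −0.307 to 0.188. In 3 clusters all members were higher in cKO, and in 4 all were lower, but none of these held more than 4 members. Near relatives in such clusters share stretches of sequence. How fragments that align in several places were treated is not given in the sources used here, so values of single genes in a cluster are uncertain where copies are nearly identical. Fractional counts occurred in 50 of the 120 genes in clusters (41.7%) and in 32 of the 131 outside (24.4%).

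**Figure D5:**
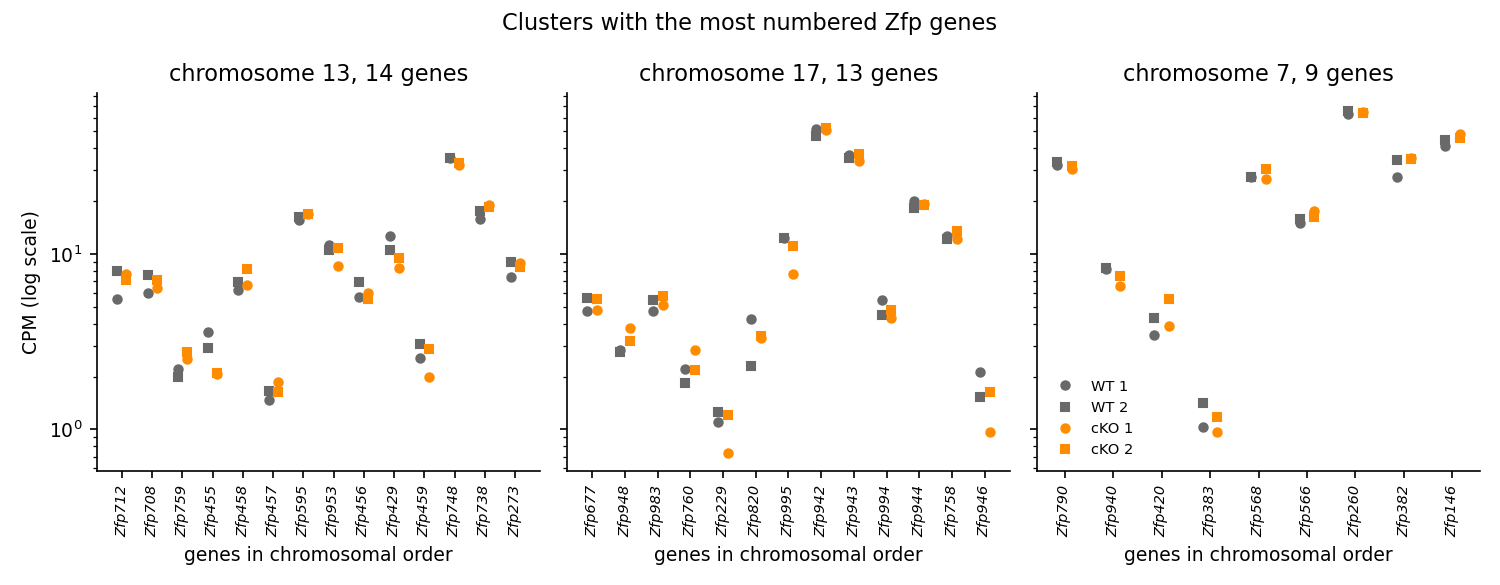
CPM (log axis) in each library for the members of the 3 clusters with the most members, in chromosomal order. Grey is WT, orange is cKO, circles and squares are replicates 1 and 2. Levels differ widely within a cluster, from 1.66 CPM for Zfp457 to 33.9 CPM for Zfp748 in the mean on chromosome 13, whereas the libraries of the 2 genotypes lie close together for most genes.

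The half-motif of ACTACA and TCC was common among the promoters of the members. Of 213 members with a promoter in the RefSeq table, 34 (16.0%) held it in the 250 bases before the start, on either strand, whereas 4.68% of the promoters of genes of at least 1 CPM and 2.62% of all 18261 promoters did. The share was alike with the KRAB pattern (16.4%) and without (15.7%). Of the 34 genes, 26 lay in clusters, on 7 chromosomes in all. Whether promoters of one cluster are copies of each other was not tested. The genes of highest level among them were Zfp180 (94.2 CPM), Zfp260 and Zfp444, whose promoters are shown with the same marks.
Zfp180, chr7:24081647-24081896, plus strand: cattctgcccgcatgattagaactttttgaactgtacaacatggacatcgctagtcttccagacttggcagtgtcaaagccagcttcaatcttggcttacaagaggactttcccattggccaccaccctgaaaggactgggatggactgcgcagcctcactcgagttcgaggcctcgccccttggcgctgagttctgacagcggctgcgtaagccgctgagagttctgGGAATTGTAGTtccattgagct
Zfp260, chr7:30094826-30095075, plus strand: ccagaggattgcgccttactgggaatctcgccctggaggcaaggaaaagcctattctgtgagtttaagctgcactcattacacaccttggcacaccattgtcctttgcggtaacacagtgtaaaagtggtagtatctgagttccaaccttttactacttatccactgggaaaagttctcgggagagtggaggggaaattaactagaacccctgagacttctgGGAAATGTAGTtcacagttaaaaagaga
Zfp444, chr7:6172263-6172512, plus strand: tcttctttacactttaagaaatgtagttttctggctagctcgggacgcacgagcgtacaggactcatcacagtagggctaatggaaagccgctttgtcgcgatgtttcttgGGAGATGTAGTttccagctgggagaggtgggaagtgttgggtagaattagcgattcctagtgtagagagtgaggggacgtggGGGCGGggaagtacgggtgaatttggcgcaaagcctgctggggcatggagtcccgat
In all 3 the motif was read on the opposite strand and lay in a stretch of moderate G and C content (52.8%, 45.6% and 52.4%). None of the 34 genes was called by DESeq2 or edgeR (3.71% and 0.499% of all genes were), 1 of them had an unadjusted p-value under 0.05 (13.5% of all genes), and their median log2 fold change was −0.054. The YY1 core was found in 8.45% of the members (4.83% of promoters of genes of at least 1 CPM), the ETS core in 18.3% (15.3%), the GC box in 42.3% (60.6%) and the TATA box in 5.16% (5.84%). None of the 5 motifs contains another, and no test was made of these shares.

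By role, the zinc finger genes that act at chromatin and promoters come first. At the shares of all genes (3.71% called by DESeq2, 0.499% by edgeR and 13.5% with an unadjusted p-value under 0.05), few or no calls would fall in lists as short as the 4 that follow, and nothing is read from their counts. Of 16 such genes 12 reached the level and 0 were called by DESeq2 or edgeR (0 at an unadjusted p-value under 0.05), with log2 fold changes from −0.16 to 0.18. Zfp609, which works with the cohesin loader NIPBL and Integrator, was at 198 and 197 CPM in WT and at 191 and 170 CPM in cKO (−0.13, adjusted p = 0.516). Zfp592 (0.01) and Zfp687 (−0.16), partners in a complex with ZMYND8, Zfp217 (0.18), a component of CtBP and CoREST co-repressor complexes, and Zfp143 (0.15) also stayed under the threshold. When each library was left out, the value ran from 0.03 to 0.34 for Zfp217 and from 0.04 to 0.26 for Zfp143. Zfp410, the activator of Chd4, was steady, at 81.3 and 82.3 CPM in WT and 83.5 and 82.8 CPM in cKO, with an interval of the log2 fold change from −0.16 to 0.20.

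Of 6 measured genes with known or proposed functions in lymphocytes, Zfp318 was called by DESeq2, beside 3.71% of all genes, and the others, Zfp335 among them, were not. Zfp608, which holds back the expression of the recombinase genes Rag1 and Rag2 in thymocytes, was at 19.2 and 21.6 CPM in WT and at 17.6 and 15.5 CPM in cKO (log2 fold change −0.30, SE 0.164, adjusted p = 0.401). Zfp341, an activator of Stat3 transcription, was at 15.6 and 13.2 CPM in WT and 13.3 and 15.6 CPM in cKO. The genotypes overlapped for Zfp341 and not for Zfp608.

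Of 9 genes for proteins that act on RNA, the spindle or the ribosome, 0 were called by either tool (3.71% and 0.499% of all genes), and 0 had an unadjusted p-value under 0.05 (13.5%). Zfp207 (BuGZ), a spindle assembly factor, was at 138 to 160 CPM over the libraries (log2 fold change 0.07), Zfp638, which recruits the HUSH complex to unintegrated DNA, at 96.5 to 112 CPM (0.13), and Zfp598, which marks collided ribosomes, at 40.7 and 38.4 CPM in WT and 35.3 and 32.9 CPM in cKO (−0.22, adjusted p = 0.417). Zfp473, a factor of histone mRNA processing, was at 2.30 to 3.28 CPM, where the interval of the log2 fold change was wide (−0.34 to 1.12).

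Of 5 measured KRAB genes known for silencing of proviruses or imprinted genes, 0 were called by either tool (3.71% and 0.499% of all genes), and 0 had an unadjusted p-value under 0.05 (13.5%). Zfp445, a regulator of genomic imprints, was at 53.0 and 50.3 CPM in WT and at 51.4 and 55.3 CPM in cKO (log2 fold change 0.04, interval −0.17 to 0.26). Zfp568, which silences a placental transcript of Igf2, was at 26.7 to 30.4 CPM (0.06), Zfp809, which binds the primer binding site of murine leukaemia viruses, at 37.8 to 42.6 CPM (0.09), and Zfp932, a repressor of endogenous retroviruses, at 7.25 to 9.10 CPM (0.20). For Zfp445 and Zfp568 the genotypes overlapped.

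The machinery through which KRAB proteins act was transcribed in all 4 libraries. Of 30 co-repressor genes with a row in the table, all reached 1 CPM, and 1 was called by DESeq2 (among all genes 3.71% were) and 0 by edgeR. Cbx5, which codes for the heterochromatin protein HP1 alpha, was at 41.5 and 49.6 CPM in WT and at 60.8 and 58.4 CPM in cKO (log2 fold change 0.39, SE 0.12, adjusted p = 0.0354 by DESeq2, 0.197 by edgeR). The call was lost without WT replicate 1 (0.26, adjusted p = 0.807), cKO replicate 1 (0.36, adjusted p = 0.718) or cKO replicate 2 (0.41, adjusted p = 0.59) and kept without WT replicate 2 (0.53, adjusted p = 0.015). Trim28 was at 106 and 119 CPM in WT and at 95.9 and 106 CPM in cKO (−0.16, adjusted p = 0.502). Setdb1 was at 62.0 and 67.9 CPM in WT and at 68.5 and 70.5 CPM in cKO (0.10, adjusted p = 0.783). When each library was left out, the value ran from −0.25 to −0.07 for Trim28 and from 0.02 to 0.17 for Setdb1. Dnmt1, the maintenance DNA methyltransferase, was at 189 and 217 CPM in WT and 223 and 232 CPM in cKO (0.16, adjusted p = 0.417, between 0.06 and 0.27 when either WT library was left out), and Atrx, a heterochromatin remodeller on the X chromosome, at 300 and 290 CPM in WT and 325 and 316 CPM in cKO (0.12, adjusted p = 0.509).

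Few genes were called in other zinc finger families, and their shares were not tested against those of the members. Of 36 Zbtb genes, which pair fingers with a BTB domain, 0 were increased and 1 was decreased (2.78% called), and of 17 Zscan and Zkscan genes, which carry a SCAN domain, 0 were called by either tool and 1 had an unadjusted p-value under 0.05. Of 69 Zfp genes with other names, 1 was decreased (1.45%), beside 3.71% of all genes. The median log2 fold changes were 0.022, 0.055 and −0.006.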

How the data were processed

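TTchem-seq libraries of DP thymocytes, 2 from WT and 2 from cKO mice, were analysed, each placed in its group by its title. The deposited table held estimated counts of fragments per gene over whole transcript spans, introns included, with fractions in 8.61% of the values. Per the labels, the authors' processing used fastp 0.13.1, STAR 2.7.9a and featureCounts 1.6.1 with the build mm10. The labels describe poly(A) capture and the study's methods rRNA depletion, and which of them applies was not settled here. Per the study's methods, gene counts came from the STAR output and duplicates were marked with Picard. STAR gene counts are whole numbers over exons, so the deposited values, with fractions and introns, did not come from that step as stated. Whether marked duplicates were removed, and how fractions and fragments with several alignments were treated, is not given in the sources used here. The authors' spike-in RNA was not used for scaling, so a shift common to all genes would not be seen. Deposited positions lay within 1000 bp of RefSeq GRCm38 at one end at least for 242 of 251 members.

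Counts were rounded, and CPM were computed from the totals of the table. The main test was the DESeq2 1.42.0 Wald test on all genes with default size factors, with Benjamini-Hochberg adjustment over all genes. edgeR 4.0.16 (quasi-likelihood) and limma 3.58.1 (voom) were run after filterByExpr. That filter was added after the calls without it had been seen (7 members). Values are given per library or with the standard error (SE) of the fit. With 2 libraries a genotype, p-values rest on the spread between these libraries. Replicate counts of members differed by more than counting noise (chi-square per degree of freedom 7.39 in WT, 7.60 in cKO). The sources name no molecular identifiers, and copies made by PCR cannot be told from separate molecules. The deviations of same-numbered libraries did not go together (correlation −0.03 over all genes). This correlation cannot show whether those libraries were paired by litter or handling, and their pairing is not known here.

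The members and lists were chosen with earlier results of these data known. Named genes were Tox4, the called members, those of lowest unadjusted p, the 5 with the highest CPM and the 5 with the highest CPM per kb, those beside the CPM limit, genes of the lists, and examples from the 3 clusters with most members. Of the listed names, Zfp683, Ighm and 2 co-repressor genes had no row, and some listed marker genes are not reported here. Fingers and KRAB boxes were searched in translated coding sequences of GENCODE M21, since a protein table was not used here, and the KRAB pattern was widened after a known KRAB protein had been missed. The promoter motifs were chosen after the data had been seen. The fits were tested on simulated counts with known changes. The other tools were R 4.3.3, Python 3.11.15 with Biopython 1.88, matplotlib 3.10.9, scipy 1.17.1, numpy 2.4.6 and pandas 2.3.3.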

Additional observations from a re-analysis of the deposited data

How the results depend on the processing

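Of the 4 called members, Zfp438 kept its call in 10 of 11 alternatives with all 4 libraries (adjusted p from 1.01e-05 to 0.0855), Zfp951 in 8 (0.00012 to 0.186), Zfp367 in 7 (0.00697 to 0.247) and Zfp318 in 7 (0.0198 to 0.209). These alternatives include the main fit read without the mean CPM criterion, where no call of a member could be lost. A fold change of at least 1.5 left out Zfp438. In place of 3, edgeR and voom called 1 increased member (Zfp438), and in place of 1 they called 0 decreased. Without its filter on low counts, an alternative chosen after the data had been seen, edgeR called 6 increased members, Zfp963, Zfp651 and Zfp184 besides the 3, and 1 decreased. Of all genes, this fit called 494 increased and 344 decreased. The replicate number was also taken as a block, although whether it pairs the libraries is not known. DESeq2 then called 1 increased member (Zfp438) and 1 decreased, beside 121 and 72 of all genes. With the same block edgeR called 0 and 0, beside 19 and 9 of all genes. When each library was left out, between 0 and 2 members were increased and between 0 and 1 decreased, and 0 of either without cKO replicate 2. The remaining library of the genotype was then assumed to vary like the others. The median log2 fold change of the members ran from −0.028 to 0.017 over these fits.

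The 1 increased co-repressor gene, Cbx5, became 0 with edgeR, voom, the length trend removed, independent filtering off, a fold change of at least 1.5, and both fits with a replicate block, and the count was between 0 and 2 when a library was left out. The value of Tox4 stayed at −0.31 but lost its call with edgeR (adjusted p = 0.153), voom (0.143), factors from total counts (0.0511), independent filtering off (0.0821) and a replicate block (0.361 with DESeq2, 0.232 with edgeR). Without 1 library it was −0.34 to −0.28.

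Log2 fold changes near 0 changed sign. With the trend of fold change on gene length removed they were −0.04 for Zfp148 and Zfp292, −0.03 for Zfp407, −0.0008 for Zfp644, −0.02 for Zfp592 and −0.01 for Zfp341, and for Zfp292 the value was −0.0018 with at least 1 CPM required in every library. Without 1 library the ranges were −0.0018 to 0.25 for Zfp646, −0.04 to 0.05 for Zfp148, −0.02 to 0.03 for Zfp292, −0.12 to 0.13 for Zfp341, −0.04 to 0.07 for Zfp592, −0.02 to 0.15 for Zfp207, −0.01 to 0.10 for Zfp445 and −0.04 to 0.16 for Zfp568. The cause of these changes was not tested.

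The fold changes of the cell type markers, of genes beside the CPM limit and of the examples from clusters were not given under these alternatives. The library labelled WT replicate 1 differed in sex transcripts, and sex and genotype are thus not balanced. Depth limits what can be said of the genes of low level, and 2 libraries a genotype give few degrees of freedom for the spread.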
